A study of Mus musculus with 2 samples.

Results

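CTCF-bound regions of mouse chromosome 11 were described along the length of the chromosome, in 1 ChIP-seq library of thymocytes. They were chosen by the positions in the deposited list: adjoining 25-bp windows of that list were joined into regions (gap 0 bp), and all regions of chromosome 11 were kept because it had more regions per Mb than any other chromosome. This gave 4074 regions of 51660 on the 19 autosomes and the X. Chromosome 7, with 3486 regions, served as the comparison because it has a similar number of genes per Mb. Since density chose chromosome 11, its density is a description here and no test was made of it.

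The cells were labelled CD4+CD8+ (DP) thymocytes of C57BL/6 mice aged 4 to 8 weeks, with genotype Rag1 -/- and a rearranged TCRbeta transgene. Rag1 encodes a subunit of the recombinase that assembles antigen receptor genes, and a rearranged beta chain lets thymocytes without it reach the DP stage. The promoter that drives the transgene, the number of mice and whether they were pooled are not stated in the labels. Chromatin was fixed in 1% formaldehyde for 10 minutes and precipitated with an antibody against CTCF. The labels also list an input library of the same thymocytes, which was not analysed here. The file holds positions only, so the labelled cell type could not be checked against marker genes and the depth is unknown. With no replicate, no p-value is given, and every interval covers counting error only.

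CTCF uses an array of zinc fingers to bind a long, GC-rich DNA motif. Cohesin, a ring-shaped complex that extrudes chromatin loops, halts at bound CTCF, and the boundaries of many chromatin domains carry CTCF sites. CTCF is needed in thymocytes for their growth and maturation, and its sites are frequent near genes.

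The letters that CTCF recognises can be shown at gene starts of chromosome 11. RefSeq promoters (GRCm38.p6, 250 bases before to 50 after each start) were searched on both strands for 2 overlapping cores of the motif, CCACNAGGG and ACNAGGNGG (CCCTNGTGG and CCNCCTNGT on the other strand), picked after several such cores had been tried. The first was present for 33 of 1865 genes on chromosome 11 (1.77%), 30 of 2316 on chromosome 7 (1.30%) and 451 of 26794 in the whole table without the Y (1.68%). For the second the shares were 4.83%, 5.09% and 4.81%, so the order of the chromosomes differed between the cores. The median GC content of these promoters was 55.3% on chromosome 11 and 52.3% on chromosome 7. The stretches below come from the protein-coding, fully named genes of chromosome 11 that held both cores overlapping, that is the first core followed by 2 more G, before their start. Each is written 5′ to 3′ in the direction of the gene, with the joined cores in capitals.

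Tbx21: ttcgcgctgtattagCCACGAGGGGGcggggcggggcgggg
Gaa: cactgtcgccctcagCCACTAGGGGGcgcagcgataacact
Mgat1: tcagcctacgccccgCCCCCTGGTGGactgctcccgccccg
Lsm11: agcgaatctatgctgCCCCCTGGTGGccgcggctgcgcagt
Rgs9: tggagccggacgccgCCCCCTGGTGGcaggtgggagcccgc
Wwc1: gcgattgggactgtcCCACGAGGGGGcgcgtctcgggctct

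Tbx21 encodes T-bet, the regulator of T helper 1 cells, and its joined cores ran from position -89 to -79 before the start. Gaa encodes the lysosomal enzyme that breaks down glycogen, with the cores from -27 to -17. Mgat1 encodes an enzyme of N-glycan synthesis, Lsm11 a component of the particle that processes histone mRNA, and Rgs9 a regulator of G-protein signalling in photoreceptors, and in these 3 the cores lay on the other strand. Wwc1 encodes KIBRA, a scaffold protein of the Hippo pathway. The file's positions are in mm9, and no mm9 sequence was used here, so these promoters were not set against the bound regions.

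Chromosome 11 held 33.4 regions per Mb (95% Poisson interval 32.4 to 34.5), and chromosome 7 held 22.9 (22.1 to 23.6), a ratio of 1.46 (95% binomial interval 1.40 to 1.53). Just outside the rule, the next chromosomes were 19 with 25.8 and 17 with 25.4 regions per Mb. Regions covered 1829 kb of chromosome 11 (1.50% of its length up to the last listed position) and 1566 kb of chromosome 7 (1.03%). These intervals treat regions as independent. The number of regions per 1-Mb bin varied 21.6 times more than a Poisson count would on chromosome 11 (variance over mean) and 25.4 times more on chromosome 7, so the true uncertainty is wider.

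Counted over all protein-coding genes, the number of genes per Mb was similar on these chromosomes. The GRCm38 gene table lists 13.2 protein-coding genes per Mb on chromosome 11 and 13.3 on chromosome 7, which gave 2.53 and 1.72 CTCF regions per gene. Of the genes of chromosome 7, 417 of 2030 encode olfactory (239) or vomeronasal (178) receptors, the odorant and pheromone receptors of the nose, compared with 83 of 1609 on chromosome 11, all olfactory. Without these receptor genes the chromosomes held 12.5 and 10.6 genes per Mb, and 2.67 and 2.16 regions per gene. Over all autosomes other than 11 there were 2.62 regions per such gene. By this ratio chromosome 11 ranked 10 of 20 and chromosome 7 ranked 19. The part of gene content in the difference in density was not tested.

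Regions were sparser in the lower part of chromosome 11 than in the upper part. In 4 equal parts of its length the counts were 462, 836, 1206 and 1570, or 15.2 (95% Poisson interval 13.8 to 16.6), 27.4 (25.6 to 29.4), 39.6 (37.4 to 41.9) and 51.5 (49.0 to 54.2) regions per Mb. These intervals too are narrower than the variation between bins allows. The rise was not steady. In segments of 10 Mb, the first held 25.5 regions per Mb, the next 4 held 6.1, 14.1, 16.3 and 17.6, and from 50000001 on each segment held 37.5 or more. Density stepped from 17.6 to 45.5 at that position, dipped to 39.1 in the segment from 60000001 and to 37.5 in that from 80000001, and reached 53.3 in the last full segment. The last part alone held 38.5% of the regions. On chromosome 7 the 4 parts held 26.3, 15.7, 19.7 and 29.7 regions per Mb, and its first 10 Mb held 12.5. No region is listed in the first 3 Mb of any chromosome, which lowers the values of the first part and the first 10 Mb on both. Median distance between neighbours on chromosome 11 was 15.15 kb in the first part and 7.9 kb in the last.

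**Figure D1:**
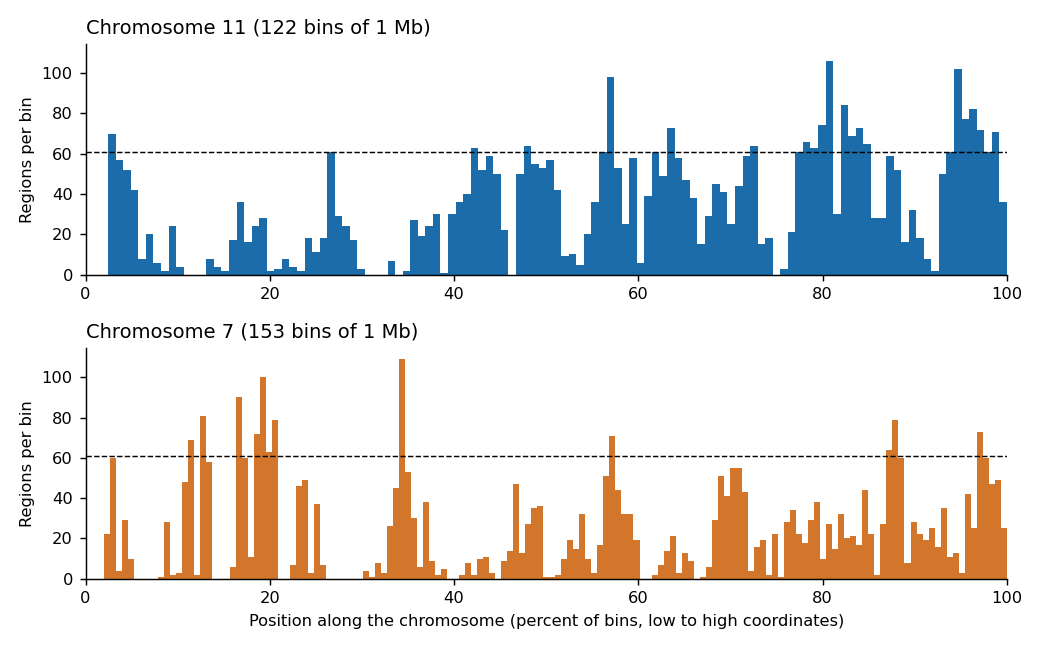
Number of CTCF regions in each 1-Mb bin along chromosome 11 (top, 122 bins) and chromosome 7 (bottom, 153 bins), from low to high coordinates, with the dashed line at 61 regions. Bars above the line gather toward the high end of chromosome 11, whereas chromosome 7 has tall bars between longer empty stretches.

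Crowded bins were frequent on chromosome 11. A bin was called dense when it held more than 61 regions, the 95th percentile of all 2648 bins, and 4.49% of all bins were dense. Chromosome 11 had 19 dense bins of 122 (15.6%), the most of any chromosome, and chromosome 7 had 12 of 153 (7.84%). Of the 19, 13 lay in the last of the 4 equal parts, and the 19 together held 1436 regions, 35.2% of those on the chromosome. The median bin held 28.5 regions (quartiles 8 and 57) on chromosome 11 and 15 (2 and 35) on chromosome 7. Empty bins numbered 12 on chromosome 11 (9.84%) and 24 on chromosome 7 (15.7%), against 14.4% of all bins. These include the first 3 bins of each chromosome, where no region is listed on any.

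**Figure D2:**
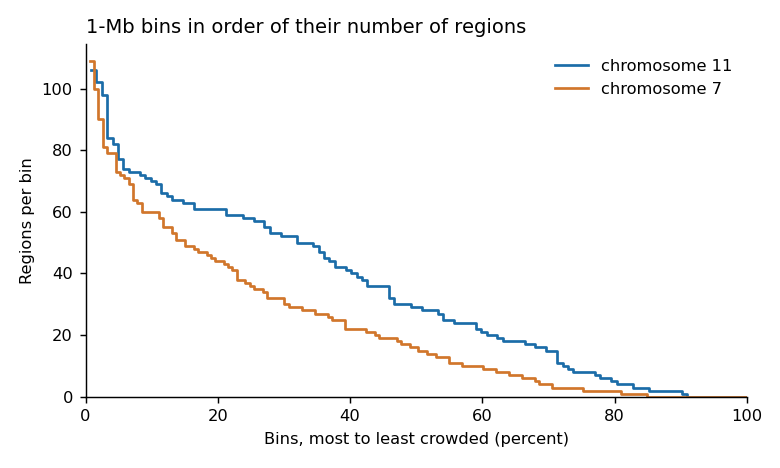
The 1-Mb bins of chromosomes 11 and 7, ordered from most to least crowded, with the number of CTCF regions per bin on the y axis and the percent of bins on the x axis. The maxima are close, 106 and 109 regions, and the curve of chromosome 11 lies above that of chromosome 7 over the middle of the order, with medians of 28.5 and 15.

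Both chromosomes reached nearly the same maximum, 106 regions per bin on chromosome 11 and 109 on chromosome 7. Dense bins held 1436 of the 4074 regions of chromosome 11 and 950 of the 3486 of chromosome 7. With gaps over 500 kb removed from the length, density was 42.5 regions per Mb on chromosome 11 and 36.4 on chromosome 7, a ratio of 1.17. The same measure was 29.7 over the other autosomes together.

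The most crowded Mb of chromosome 11 (98000001 to 99000000, mm9) ranked 4 in the genome with 106 regions. It is the Mb of Ikzf3, which encodes Aiolos, an Ikaros family factor of lymphocytes. Every stretch of 100 kb in it held between 4 and 18 regions, and its longest gap was 50.25 kb. Short pieces contributed to this count, since 21 of its regions were at most 75 bp wide, the median width was 425 bp, and joining regions at most 1000 bp apart left 77. Next came 115000001 to 116000000 with 102 regions, which ranked 8 in the genome and held 6 to 13 in each 100 kb. The Mb of Trp53, the gene of the tumour suppressor p53 (69000001 to 70000000), held 98 regions with a median width of 550 bp and ranked 10. Then came 100000001 to 101000000, the Mb of Stat3, a transcription factor of cytokine signalling, with 84 regions. Last of these 5 was 117000001 to 118000000, the Mb of Birc5 (survivin, a factor of cell division), with 82 regions, of which 48 lay in clusters as defined below. In this last bin the regions were uneven, with 0 to 17 in each 100 kb and a gap of 166.7 kb. After joining at 1000 bp these bins held 77, 82, 80, 73 and 65 regions, in the order given, so that the first bin no longer led. The densest bin of chromosome 7 (52000001 to 53000000) held 109 regions, 85 after joining.

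Neighbouring bins resembled each other more on chromosome 11. Across 121 pairs of adjacent bins Pearson's r was 0.65, compared with 0.46 across 152 pairs on chromosome 7. At a distance of 2 Mb r was 0.46 and 0.21, at 5 Mb it was 0.09 and -0.05, and at 10 Mb it was 0.19 and -0.06. Adjacent bins share a library and regional base composition and are not independent, so these values are descriptions. Bins of at least 40 regions formed 13 runs on chromosome 11, the longest of 8 bins (113000001 to 121000000) with 576 regions. Chromosome 7 had 14 such runs, none longer than 5 bins. Bins of at most 5 regions formed runs of up to 4 bins on chromosome 11 and up to 8 on chromosome 7.

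To relate the landscape to genes, 21 bins of chromosome 11 were named by a gene or gene cluster from general knowledge of where it lies in mm9. All 20 gene symbols are on chromosome 11 of the GRCm38 table, in the order of the bins. The bounds were not checked against an mm9 annotation and each bin holds many other genes, so a region is placed in a bin and is not assigned to a gene, exon, intron or promoter. Bins of 5 genes of general cell functions held 47 to 98 regions (median 71), and 4 of the 5 were dense, beside 15.6% of all bins of the chromosome. Bins of 8 immune genes held 19 to 106 (median 48.5), with 2 dense. Bins of 8 genes or clusters of other tissues held 2 to 63 (median 19), with 1 dense. These ranges overlapped, and the grouping is a description. All 5 bins of genes of general cell functions lay in the last 2 of the 4 equal parts of the chromosome. In these parts 3 of 30 and 13 of 31 bins were dense, against 1 of 30 and 2 of 31 in the earlier parts. The other classes also had bins in the earlier parts, so class and position along the chromosome cannot be told apart. The genes and their classes were picked with earlier results of these data known, so the shares of dense bins do not test any class.

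**Figure D3:**
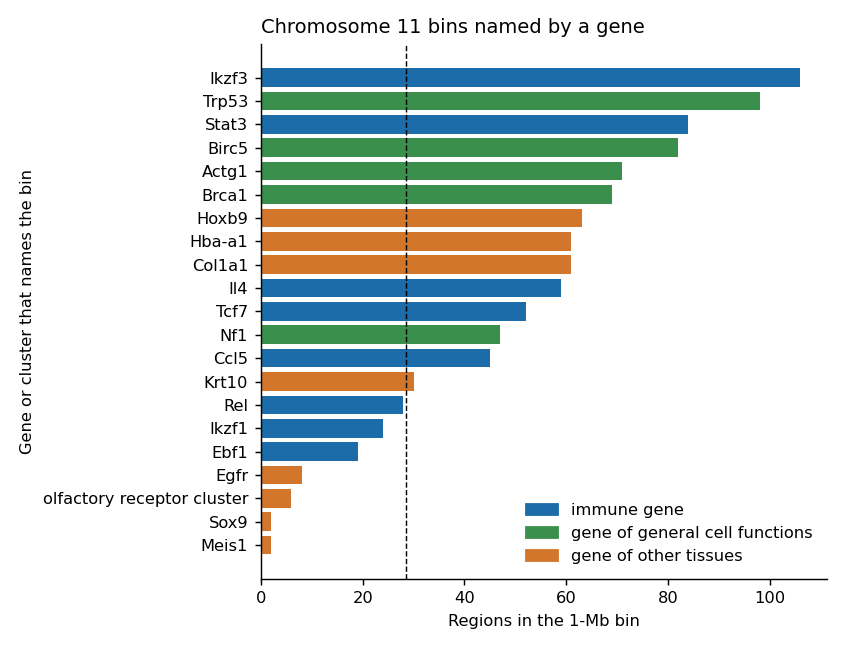
Number of CTCF regions in 21 bins of 1 Mb on chromosome 11, each named by 1 gene or cluster, coloured by class, with the dashed line at the chromosome's median of 28.5. The bins named by Ikzf3 (106) and Trp53 (98) are the fullest, and those named by Meis1 and Sox9 hold 2 each.

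Among the genes of general cell functions, the bin of Actg1, which encodes the cytoskeletal protein gamma-actin, held 71 regions and that of Brca1, a DNA repair factor, 69. The bin of Nf1, whose product restrains Ras signalling, held 47. In each of the 5 bins the count exceeded the chromosome's median of 28.5.

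The bins of immune genes ranged from 19 regions to the chromosome's maximum of 106, all above its lower quartile of 8. Ikzf3 and Stat3 stood in dense bins with 106 and 84 regions. Il4, a cytokine of T helper 2 cells that lies in a cytokine cluster, stood in a bin with 59 regions, and Tcf7, which encodes the T lineage factor TCF-1, in one with 52. The bin of Ccl5, a chemokine gene in a chemokine cluster, held 45 regions with a median width of 600 bp. Rel, an NF-kappaB subunit, had 28 regions in its bin. Ikzf1, the gene of Ikaros, a factor of all lymphocytes, lay in a bin of 24 regions flanked by bins of 2 and 4. Ebf1, a factor of the B lineage, had the fewest of this class, 19. Of the 8 bins, 5 lay above the chromosome's median, compared with 4 of the 8 bins of other tissues. By the definition of a median, about 50% of all bins lie above it. No expression was measured, so activity of these genes in the cells is not known from these data.

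Bins named by genes or clusters of other tissues ranged from 2 to 63 regions. Hoxb9, a gene of the Hoxb cluster that patterns the body axis, lay in a bin of 63 regions. Bins of 61 regions held Col1a1, a collagen chain of bone, and Hba-a1, an alpha-globin gene, and the latter stood between bins of 18 and 29. Krt10, a gene of the type I keratin cluster of skin, lay in a bin of 30 regions between bins of 106 and 84, and 430.025 kb of that bin formed a single gap. The bin of Egfr, the epidermal growth factor receptor, held 8 regions. A bin with olfactory receptor genes held 6 regions between bins of 58 and 39. The bin of Meis1, a homeobox factor of blood stem cells, held 2 regions 150 bp apart, which covered 125 bp together. The bin of Sox9, a regulator of cartilage and testis beside a long gene-poor stretch, held 2 regions that covered 325 bp, and was followed by a bin of 50.

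Sparse stretches were shorter on chromosome 11. Gaps over 500 kb numbered 23 of 4073 distances (0.565%) on chromosome 11 and 43 of 3485 (1.23%) on chromosome 7, against 1.38% of all distances. Together they made up 26.01 Mb of chromosome 11, 21.3% of its length and the lowest share of the 20 chromosomes, and 37.3% of chromosome 7. The longest gap was 3690 kb (36725321 to 40414970), flanked by regions of 425 and 500 bp. Next came 3450 kb (12711421 to 16161395), whose flanking regions were 75 and 50 bp wide. A gap of 1740 kb ran from 17184621 to 18924620. One of 1708 kb lay at 90559546 to 92267170, and one of 1538 kb at 40679571 to 42217570. Of these 5, 4 ended at or below 42217570. Chromosome 7 had a gap of 7705 kb (39067705 to 46772954). The 44 regions at the edges of gaps over 500 kb on chromosome 11 had a median width of 387.5 bp, compared with 500 bp for 79 such regions on chromosome 7 and 450 bp for 1305 in the genome.

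Typical spacing differed less than density. The median distance between neighbours was 9.625 kb on chromosome 11 (95% order-statistic interval 8.85 to 10.3 kb), 10.9 kb on chromosome 7 and 13.3 kb on the other autosomes. Lower quartiles were 2.45 and 2.525 kb, and upper quartiles 25.15 and 28.8 kb, for chromosomes 11 and 7. Distances of at most 1 kb made up 17.0% and 16.9%. Of these, 195 on chromosome 11 were 25 bp, a single unlisted window and the smallest distance the rule leaves apart.

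**Figure D4:**
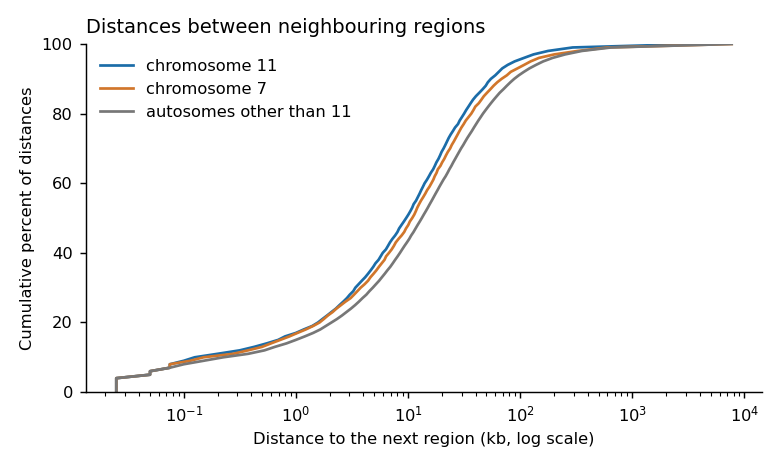
Cumulative percent of distances between neighbouring CTCF regions (y axis) against the distance in kb (x axis, log scale) for chromosome 11, chromosome 7 and the autosomes other than 11. Below about 1 kb the curves of chromosomes 11 and 7 run together, and at the median they stand at 9.625 and 10.9 kb.

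Clusters, defined as at least 3 regions with neighbours at most 5 kb apart, held 1269 regions of chromosome 11, 31.1% (exact 95% binomial interval 29.7 to 32.6%). The share was 29.7% on chromosome 7 (28.2 to 31.2%), whose interval overlapped, and 25.1% of all regions. These intervals treat regions as independent, which members of a cluster are not, so they are too narrow. Chromosome 11 had 336 clusters, 2.76 per Mb, and chromosome 7 had 274, 1.80 per Mb. Of the 336 clusters, 186 had 3 regions, 95 had 4 and 55 had 5 or more. Dense bins, which held 35.2% of the chromosome's regions, were where 144 of the 336 began. On chromosome 7, 113 of 274 began in dense bins, which held 27.3% of its regions. Clusters are defined by close spacing, so crowded bins favour them. Very short regions were more frequent inside clusters than outside on both chromosomes. On chromosome 11, 23.2% of clustered regions were at most 75 bp wide, compared with 11.4% outside clusters. On chromosome 7 these shares were 24.7% and 10.1%. Clusters of chromosome 11 with at least 3 regions of 525 bp or more numbered 90. After joining regions at most 1000 bp apart, 146 of the 336 still had 3 or more regions and 58 had become a single region.

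The largest clusters had 10 regions each. That at 98646971 to 98658145, in the most crowded bin, opened with regions of 650, 625, 650 and 650 bp, went on with widths of 25, 425, 25, 275 and 50 bp, and closed with 550 bp. It became 2 regions after joining at 1000 bp. The cluster at 48585021 to 48596145, in a bin of 30 regions, began with 650, 800, 600 and 625 bp, and joining left 4. The cluster at 118942996 to 118953370 had 600 and 575 bp at one end and 525, 625 and 650 bp at the other, with 5 regions of 25 to 225 bp between, and joining left 3. A cluster of 9 regions (113466771 to 113480170) held 2 of full width, 625 and 800 bp. In contrast, the cluster of 8 regions at 101766321 to 101790220 alternated 5 regions of 600 to 675 bp with 3 of 50 to 75 bp over 23.9 kb, and 7 remained after joining. On chromosome 7 the largest cluster had 8 regions (133836605 to 133855779).

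Widths differed little between the chromosomes. The median was 550 bp on chromosome 11 (quartiles 200 and 625 bp, 95% order-statistic interval 525 to 550 bp) and 525 bp on chromosome 7, a difference of 1 window. Means were 449 bp (SD 262 bp over regions) and 449 bp (SD 254 bp). The most frequent width was 650 bp on chromosome 11, with 371 regions, and 625 bp on chromosome 7, with 346. Regions of 525 to 700 bp made up 46.2% of both.

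**Figure D5:**
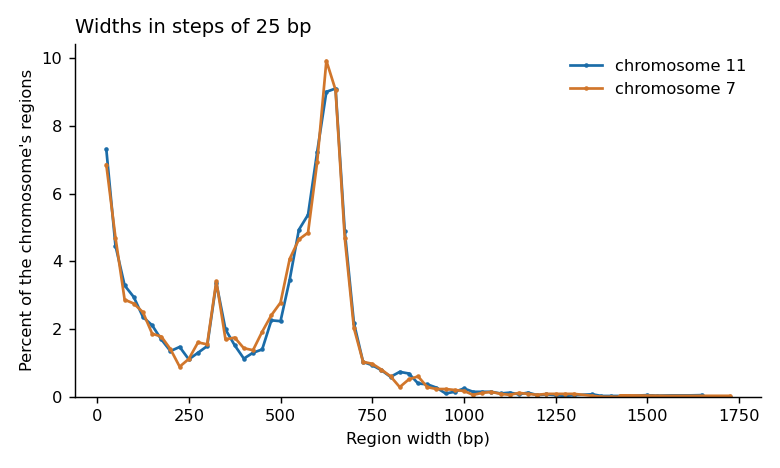
Percent of regions at each width, in steps of 25 bp, on chromosomes 11 and 7. Both curves are high at 25 bp, have a small peak at 325 bp and a main peak at 625 to 650 bp, and lie close together throughout.

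Very short regions, of at most 75 bp, numbered 614 on chromosome 11 (15.1%) and 503 on chromosome 7 (14.4%), against 14.1% of all regions. A neighbour lay at most 200 bp away for 362 of the 614 on chromosome 11 (58.96%) and for 456 of its 3460 wider regions (13.2%). These shares were 63.4% and 11.4% on chromosome 7, and 59.5% and 11.2% over all chromosomes. Regions wider than 1 kb numbered 57 on chromosome 11 (1.40%), compared with 40 on chromosome 7 (1.15%) and 1.04% of all regions.

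Sparse bins held narrower regions on chromosome 11. In its 23 bins of 1 to 10 regions the median width was 375 bp over 109 regions. In bins of 11 to 80 regions the median was 550 bp in each class (11 to 25, 26 to 40, 41 to 60 and 61 to 80), and in the 5 bins above 80 it was 525 bp. The corresponding median in bins of 1 to 10 regions was 500 bp on chromosome 7 (202 regions) and 500 bp over all chromosomes (3694 regions). Regions of at most 75 bp made up 19.3% in the sparse bins of chromosome 11 and 14.4% in those of chromosome 7. No region in the sparse bins of either was wider than 1 kb. Over all chromosomes 20 of 3694 were, a share so low that none among 109 and 202 regions sets neither chromosome apart.

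The bins of the 12 widest regions held 20 to 72 regions each, and only the bin of 20 lay below the chromosome's median of 28.5. The widest, a pair of 1650 bp, lay at 66925096 to 66926745, in a bin of 20 regions, and at 78832271 to 78833920, in a bin of 58. One of 1625 bp followed (118599071 to 118600695), in a bin of 72 and within a cluster of 4. Then came 1 of 1525 bp at 95381871 to 95383395. A pair of 1500 bp began at 70590546 and 121097796. The next 3, from 50400371, 20694071 and 58114496, were 1450, 1400 and 1375 bp wide. Another 3, from 72950846, 75726596 and 113672421, tied at 1350 bp. Of these 12, the region of 1400 bp was the most isolated, with its nearest neighbour 51.0 kb away. Whether input reads also piled up at these places was not examined.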

How the data were processed

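ChIP-seq of CTCF was analysed in 1 library. The authors deposited a browser track of 912174 windows of 25 bp, each a chromosome, start and end, with no height, count or p-value, so depth is unknown. Reads were aligned with Bowtie and the build is mm9, per the submitters' processing notes. How peaks were called, at what threshold and whether against the input is not given in the sources used here. Starts were read as counted from 0 and are printed counted from 1. Regions were assigned to 1-Mb bins and to parts of the chromosome by their midpoint, and chromosome length was taken up to the last listed position. The RefSeq table (GRCm38.p6) gave gene numbers, gene order and promoters, never positions to compare with mm9. Poisson, Clopper-Pearson and order-statistic intervals of 95% were computed, and no test was made. The members, bins and lists were chosen with earlier results of these data known. Named by rule were the 5 densest bins, the 5 longest gaps, the 5 largest clusters, the 10 widest regions with ties, and every bin of the gene list, from which 1 bin is not reported here. For chromosome 7 the first of each was to be named, and its widest region was 1725 bp. Alternatives joined regions at most 100, 500 or 1000 bp apart, left out regions by width, or changed bins, lengths and cut-offs. Steps were tested on simulated data. Tools were Python 3.11.15 with pandas 2.3.3, NumPy 2.4.6, matplotlib 3.10.9 and SciPy 1.17.1.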

Additional observations from a re-analysis of the deposited data

How the results depend on the processing

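The ratio of density on chromosome 11 to chromosome 7 was 1.45 to 1.48 under each of 7 settings that joined regions, left out narrow ones or counted length from the first region, and 1.70 with all other autosomes as the comparison. Dense bins on chromosome 11 numbered 19 to 22 in all 7 settings run. The cut-off of more than 61 regions cannot have been kept throughout. Among regions of at least 625 bp, the 21 dense bins would then need nearly all of the 1340 regions left on the chromosome. The range therefore describes bins crowded relative to other bins of the same setting, and does not show that a fixed cut-off gives similar numbers. The median distance moved from 9625 bp to 11550, 12650 and 13325 bp after joining regions at most 100, 500 and 1000 bp apart, to 12275 bp without regions of at most 75 bp, and to 19500 and 31350 bp among regions of at least 525 and 625 bp. In the same order of settings, the share of regions in clusters fell from 31.1% to 23.02%, 17.5%, 14.6%, 22.1%, 11.7% and 7.69%, and chromosome 7 had 21.4%, 17.8%, 13.2%, 20.95%, 12.5% and 5.94%, so which of them had the larger share depended on the setting. With neighbours at most 2 or 10 kb apart the share was 15.6% and 52.1%. Gaps over 500 kb made up 22.7% of chromosome 11 without regions of at most 75 bp, 29.1% and 37.0% among regions of at least 525 and 625 bp, and 12.7% when gaps over 1 Mb were counted. Median width was 575 bp after each of the 3 joinings and without regions of at most 75 bp. The settings with neighbours at most 2 or 10 kb apart and with gaps over 1 Mb kept all 4074 regions and changed a cut-off. No paired analysis was possible because 1 library was analysed. Without heights or depth, weak binding and absence of binding cannot be told apart at a position that is not listed.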

Other observations

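Some changes between neighbouring Mb of chromosome 11 were abrupt. The largest fall between adjacent bins was from 106 regions, in the bin of Ikzf3, to 30 in that of the keratin gene Krt10, and the count rose again to 84 in the next bin, that of Stat3. From the bin before the olfactory receptor genes it fell from 58 to 6. A bin with no region (56000001 to 57000000) was followed by 50. Elsewhere 64 regions (88000001 to 89000000) were followed by 15. These bins were picked by the size of the step after the counts were seen, and no explanation was tested.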
